A study of Mus musculus with 64 samples.

Results

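Of the 64 arrays of the series, 15 make up the comparison of the wild-type thymus with the wild-type spleen: 8 thymi, from mice A to H, and 7 spleens, from mice A to G. The arrays were chosen by their organ and genotype labels. The spleen array labelled wild type of mouse H was left out, because its log2 signal of Hmgn2 was 6.31 where the 7 other wild-type spleens lay between 11.81 and 12.41, with all 16 wild-type thymi and spleens normalized together. All mice were male, wild type and 21 weeks old. Mice A to D carried the strain label C57BL/6 and mice E to H the label C57BL/6J, so that 4 thymi and 4 spleens had the first label and 4 thymi and 3 spleens the second. The other arrays of the series were of brain and liver, and of all 4 organs from Hmgn2 knockouts and from double knockouts of Hmgn1 and Hmgn2. The labels describe whole organs and no sorting of cells.

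The thymus is the organ in which T cells mature. Precursors from the bone marrow divide, rearrange their receptor genes and are selected on thymic epithelial cells, which make up the cortex and the medulla. The spleen filters the blood in its red pulp, where macrophages take up old red cells, and mounts antibody responses in its white pulp, which holds follicles of mature B cells beside zones of mature T cells. In the mouse, the spleen also remains a site of red cell and platelet formation in adult life.

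Each array measured RNA as the signal of bead-bound probes. Levels below are log2 signals after background correction and quantile normalization of the 15 arrays together, and 3 values in a row are the lowest, the median and the highest array of an organ. Differences are log2 values, thymus minus spleen, with the standard error of limma, and n is 8 thymi and 7 spleens throughout. Adjusted p-values come from limma with the mouse as a random block, over 9600 genes. The brightest probe stands for a gene. Of 87 other probes of the genes named here, 64 were detected on at least 4 arrays, and all 64 had the sign of the brightest, 16 of them at under 50% of its log2 difference. Those 16 are given beside their genes or belong to Cd22 (-1.27), Cpa3 (0.79), Csf3r (-1.16 and -1.77), Klra4 (-1.12) and Nfatc1 (-0.50). In whole organs, fewer cells of a type and less RNA per cell cannot be told apart.

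The arrays detected 11808 to 13096 probes in the thymi and 12692 to 13411 in the spleens. The 95th percentile of the raw signal was 1072 to 1547 in the thymi and 1068 to 1402 in the spleens. The first principal component held 76.3% of the variance and separated the organs. Spleen G and thymus A stood apart within their organs. Thymus A had a median correlation of 0.973 with the other thymi, which lay between 0.988 and 0.990, and spleen G one of 0.937 with the other spleens, which lay between 0.971 and 0.979. Spleens B and C had the 2 highest summed signals of red cell and neutrophil genes among the spleens. Counts were therefore repeated without thymus A and spleen G, and without spleens B, C and G, 2 settings chosen after seeing the data.

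The RNA of the organs differed at 6541 of the 9600 genes tested, 68.1%, at an adjusted p under 0.05. Of these, 3403 genes (35.4% of those tested) were higher in the thymus and 3138 (32.7%) were lower. Requiring also a difference of at least 2-fold left 2121 genes (22.1%), 925 higher (9.64%) and 1196 lower (12.5%) in the thymus. For 3767 genes, 39.2%, no thymus overlapped any spleen. Probes of 163 genes were detected on all 8 thymi and no spleen, and those of 188 genes on all 7 spleens and no thymus. The median difference over all genes was 0.044. Gene groups are described below by how many of their tested members were called, and each such count can be set against these shares. Some genes belong to several lists, so that counts of different lists are not independent. Irf8, for example, is in the dendritic cell and natural killer lists, and Fcgr4 in the neutrophil and innate sensing lists. A gene with signal in 1 organ enters the test through that organ, so the counts cover the tested members and not whole lists. The p-values given below for genes undetected in 1 organ carry the same limit. Members on the array that fell below the filter on low signal numbered 3 of 22 for thymocytes, 8 of 27 for thymic epithelium, 2 of 39 for B cells, 8 of 41 for red cell precursors and 7 of 50 for mitosis.

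**Figure D1:**
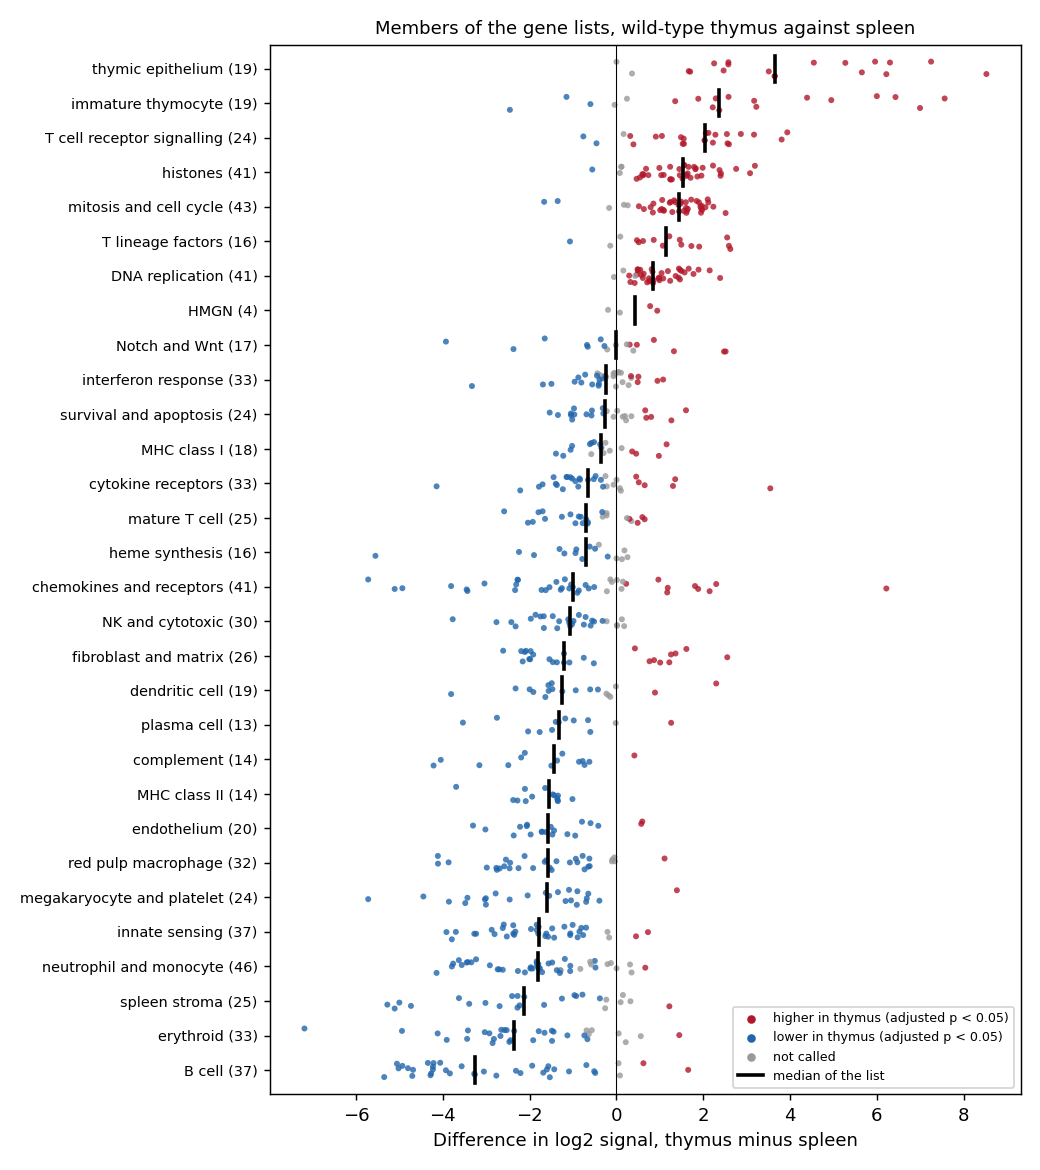
Differences in log2 signal, thymus minus spleen, of the tested members of each gene list, with 1 point per gene and a bar at the list median. The thymic epithelium list has a median of 3.65 and the B cell list one of -3.26, while the median over all 9600 genes is 0.044.

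Genes of immature thymocytes were among the largest increases. Of 19 tested members of the thymocyte list, 14 were higher and 3 lower in the thymus, with a median difference of 2.37. Rag1, a subunit of the recombinase that cuts receptor gene segments, read 11.19, 11.38 and 11.65 in the thymi and 4.29, 4.40 and 4.52 in the spleens. No spleen had a detected signal of Rag1, and the thymi were at least 93.2-fold higher (adjusted p = 1.25e-20), a bound that takes the dim organ at the lowest signal of its detected probes. Rag1 thus passed the detection filter through the thymi alone, which limits what its p-value means. Its partner Rag2, chosen after its values were seen like Cd4, Cd8b1, Ptcra and Aire below, read 6.09, 6.57 and 6.81 in the thymi and 4.12, 4.27 and 4.31 in the spleens and was also undetected in every spleen. Neither recombinase gene was thus measured in a spleen. Dntt, the polymerase that adds untemplated bases at receptor gene joints, read 10.60, 10.79 and 10.91 in the thymi and 4.24, 4.35 and 4.49 in the spleens, at least 60.3-fold higher in the thymus (adjusted p = 1.25e-20). Arpp21, a cAMP-regulated phosphoprotein abundant in the brain and in immature thymocytes, read 11.88, 12.02 and 12.12 in the thymi and 4.25, 4.39 and 4.84 in the spleens, a difference of at least 142-fold (adjusted p = 1.82e-20). All 8 thymi lay far above all 7 spleens for each of these genes.

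The promoter of Rag1 is shown because Rag1 encodes a subunit of the recombinase and is among the thymocyte genes described above. The 150 bases before the Rag1 start (RefSeq, GRCm38.p6, chr2:101649533-101649682 on the minus strand) are given 5′ to 3′ along the gene. Capitals mark TGTGGT, the core bound by RUNX factors, the E box CAGGTG, and CCAAT, each on either strand.
Rag1: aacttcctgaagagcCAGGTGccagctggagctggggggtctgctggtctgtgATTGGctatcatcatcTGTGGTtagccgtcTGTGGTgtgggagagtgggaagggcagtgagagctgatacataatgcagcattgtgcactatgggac
TGTGGT stood 81 and 67 bases before the start, the E box 135 and the inverted CCAAT 97 bases before it. In the 250 bases before the start, TGTGGT was found in 3 of 13 tested thymocyte genes with a promoter in the table, 23.1%, against 14.2% of all 27025 genes. That share was not particular to the list, with 21.7%, 5 of 23, for red cell genes and 20%, 6 of 30, for B cell genes. It was 0% for T lineage factors and 6.25% for T cell receptor signalling genes. The other marked motifs were no more frequent in the thymocyte promoters than among all genes. The E box was in 1 of the 13, 7.69% against 17.1%, and CCAAT in 4, 30.8% against 34.5%. The search covered 10 motifs in 10 lists on both strands, and those described here and below were chosen after the matches were seen. Its other motifs were the GATA site AGATAA, the CACCC site CCACACCC, the octamer ATGCAAAT, the EBF motif CCCNNGGG, the cell cycle motif TTTGAA, the TCF core CTTTGA and the TATA box TATAAA.

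Other members follow thymocytes through the stages of maturation. Ptcra, the surrogate chain that pairs with the first rearranged receptor chain, read 6.16, 6.57 and 6.86 in the thymi and 4.31, 4.64 and 4.93 in the spleens, a difference of 1.89 ± 0.11. Cd4, the coreceptor for MHC class II, read 7.35, 7.70 and 7.85 in the thymi and 4.84, 5.33 and 5.77 in the spleens, a difference of 2.37 ± 0.12. Cd8b1, a chain of the coreceptor for MHC class I, was bright in both organs at 14.00, 14.09 and 14.28 in the thymi and 11.10, 11.55 and 11.75 in the spleens, a difference of 2.58 ± 0.092. Both coreceptor genes were thus measured in spleens as well. Themis, which carries receptor signals during positive selection, read 8.92, 9.14 and 9.27 in the thymi and 5.56, 5.77 and 6.41 in the spleens (3.22 ± 0.12). Il2ra, the alpha chain of the IL-2 receptor, read 6.18, 6.23 and 6.47 in the thymi and 4.56, 4.87 and 5.39 in the spleens (1.36 ± 0.11). No thymus overlapped a spleen for any of these 5 genes. Cd44, an adhesion receptor that early precursors lose and that mature lymphoid and myeloid cells carry, went the other way and read 6.66, 6.95 and 7.15 in the thymi and 9.00, 9.37 and 9.91 in the spleens (-2.45 ± 0.12). Cd24a, a surface protein of immature lymphocytes and red cell precursors, read 4.63, 5.31 and 5.51 in the thymi and 4.74, 5.89 and 6.60 in the spleens, with overlapping organs. Its lowest level in each organ lay near the floor, in the range of 4.44 to 4.99 where Epor went undetected in the thymi. The Cd24a difference of -0.60 ± 0.22 (adjusted p = 0.0228) did not pass the threshold without spleens B, C and G. Less familiar members rose as well. Aqp11, an aquaporin, read 10.91, 11.05 and 11.20 in the thymi and 4.50, 5.20 and 5.50 in the spleens, and Spo11, known as the enzyme that starts meiotic recombination, read 11.47, 11.54 and 11.64 in the thymi and 6.69, 7.03 and 8.27 in the spleens. Dimmer probes detected on 8 arrays gave 2.76 for Aqp11 and 1.91 for Spo11. Endou, an RNA-cutting nuclease, read 10.10, 10.37 and 10.51 in the thymi and 5.08, 5.43 and 5.63 in the spleens, with no overlap for any of the 3. Probes of Cd8a and Ccr9 were on the arrays and fell below the detection filter.

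Transcription factors of the T cell lineage were mostly higher in the thymus, 13 of 16 tested with 1 lower, at a median difference of 1.15. Gata3, needed for T cell commitment, read 9.18, 9.25 and 9.37 in the thymi and 5.78, 6.68 and 7.27 in the spleens (2.63 ± 0.15, adjusted p = 7.1e-11). Bcl11b, which closes off other fates, read 11.75, 11.99 and 12.12 in the thymi and 8.91, 9.26 and 9.92 in the spleens (2.59 ± 0.12). Satb1, a chromatin organizer of thymocytes, was bright in both organs at 13.37, 13.60 and 13.78 in the thymi and 11.38, 11.60 and 12.09 in the spleens (1.91 ± 0.11). For all 3, the lowest thymus lay above the highest spleen. Myb, a factor of dividing precursors, read 6.66, 6.97 and 7.38 in the thymi and 4.27, 4.37 and 4.78 in the spleens, was detected in no spleen and was at least 4.39-fold higher in the thymus. Egr1 and Egr2, induced by receptor signals, differed by 1.22 ± 0.16 and 1.50 ± 0.17. Nfatc1, the member that was lower, read 8.98, 9.13 and 9.28 in the thymi and 9.81, 10.14 and 10.60 in the spleens (-1.07 ± 0.11).

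Of the Notch and Wnt list, 6 of 17 tested members were higher and 7 lower. These counts lay near the shares of all genes tested, 35.4% higher and 32.7% lower. The median difference of -0.01 turned to 0.08 without spleen C and to 0.15 in the C57BL/6J mice alone. Notch signals direct precursors to the T lineage in the thymus and B cells to the marginal zone in the spleen. The receptor Notch1 read 9.15, 9.31 and 9.66 in the thymi and 8.10, 8.47 and 9.22 in the spleens (0.86 ± 0.14), with spleen G the highest spleen and above the lowest thymus. In the C57BL/6J mice alone Notch1 differed by 0.518 and lost its call (adjusted p = 0.0568 with limma). Its target Hey1 read 8.96, 9.20 and 9.42 in the thymi and 6.45, 6.64 and 6.97 in the spleens (2.48 ± 0.094), and the ligand Jag2 read 5.35, 5.83 and 6.20 in the thymi and 4.29, 4.52 and 4.68 in the spleens, detected in no spleen. The ligand Dll1 read 4.76, 5.04 and 5.39 in the thymi and 7.21, 7.36 and 7.60 in the spleens (-2.37 ± 0.10), and the targets Dtx1 and Hes1 differed by -3.93 ± 0.18 and -1.65 ± 0.12. Hey1 and Jag2 were thus higher, and Dll1, Dtx1 and Hes1 lower, in the thymi than in the spleens. Wnt4, a ligand made by thymic epithelium, read 6.59, 6.86 and 7.03 in the thymi and 4.19, 4.33 and 4.46 in the spleens, at least 3.96-fold higher in the thymus.

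Of the T cell receptor complex and its proximal signalling proteins, 21 of 24 tested members were higher in the thymus and 2 lower, with a median difference of 2.03. The complex subunit Cd3e read 11.85, 11.98 and 12.11 in the thymi and 9.04, 9.35 and 9.78 in the spleens (2.59 ± 0.096, adjusted p = 1.35e-13), and Cd3d and Cd3g differed by 2.56 ± 0.17 and 2.55 ± 0.17. Cd247, the zeta chain, read 10.73, 10.85 and 11.13 in the thymi and 7.24, 7.73 and 8.05 in the spleens (3.17 ± 0.12) on its brightest probe, and its 2 other probes gave 1.11 and 1.44. Lat, the adaptor below the receptor, read 10.97, 11.17 and 11.38 in the thymi and 8.57, 8.90 and 9.14 in the spleens (2.28 ± 0.087). Every spleen had a clear signal of these genes, below that of every thymus. The adaptors Trat1 and Sh2d1a had the largest differences of the list, 3.81 ± 0.15 and 3.94 ± 0.11, and Thy1, a surface protein of T cells, read 13.20, 13.33 and 13.46 in the thymi and 9.78, 10.45 and 11.01 in the spleens. Both members that were lower restrain receptor signals. The phosphatase Ptpn22 differed by -0.76 ± 0.098 and the kinase Csk by -0.46 ± 0.12. The summed signal of the list was 61090 to 65350 in the thymi and 14500 to 19390 in the spleens, on the linear scale.

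Genes of mature T cells ran against the other T cell lists. Of 25 tested members, 4 were higher and 16 lower in the thymus, with a median difference of -0.70. Klf2, the factor that turns on egress receptors in mature T cells, read 8.34, 8.49 and 8.55 in the thymi and 10.23, 11.25 and 11.42 in the spleens (-2.59 ± 0.15, adjusted p = 4.58e-11). Ccr7, the receptor that guides naive T cells to lymphoid tissue, read 6.40, 6.74 and 7.10 in the thymi and 7.72, 7.97 and 8.39 in the spleens (-1.25 ± 0.13), and Itgb7, an integrin chain of gut homing, read 8.06, 8.37 and 8.54 in the thymi and 9.72, 9.99 and 10.27 in the spleens (-1.64 ± 0.098). The thymi lay below all spleens for these 3. The GTPases Gimap3, Gimap5 and Gimap7, of a family with regulators of lymphocyte survival, differed by -1.92 ± 0.16, -2.04 ± 0.15 and -1.79 ± 0.12. Their relative Gimap9 was higher (0.49 ± 0.15, adjusted p = 0.00944), with overlapping organs, and lost its call without spleens B, C and G and in the mice of either strain label alone. Gimap6, chosen after its values were seen, differed by 0.34 ± 0.16 and did not pass the threshold (adjusted p = 0.0718), but passed it at 0.504 without spleen G. Cd69, an activation marker also borne by selected thymocytes, was higher at 9.95, 10.26 and 10.32 in the thymi and 9.07, 9.79 and 9.86 in the spleens (0.60 ± 0.12). Many of the lower members are also expressed by B cells and other white cells, and their share in the spleen signal was not tested.

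**Figure D2:**
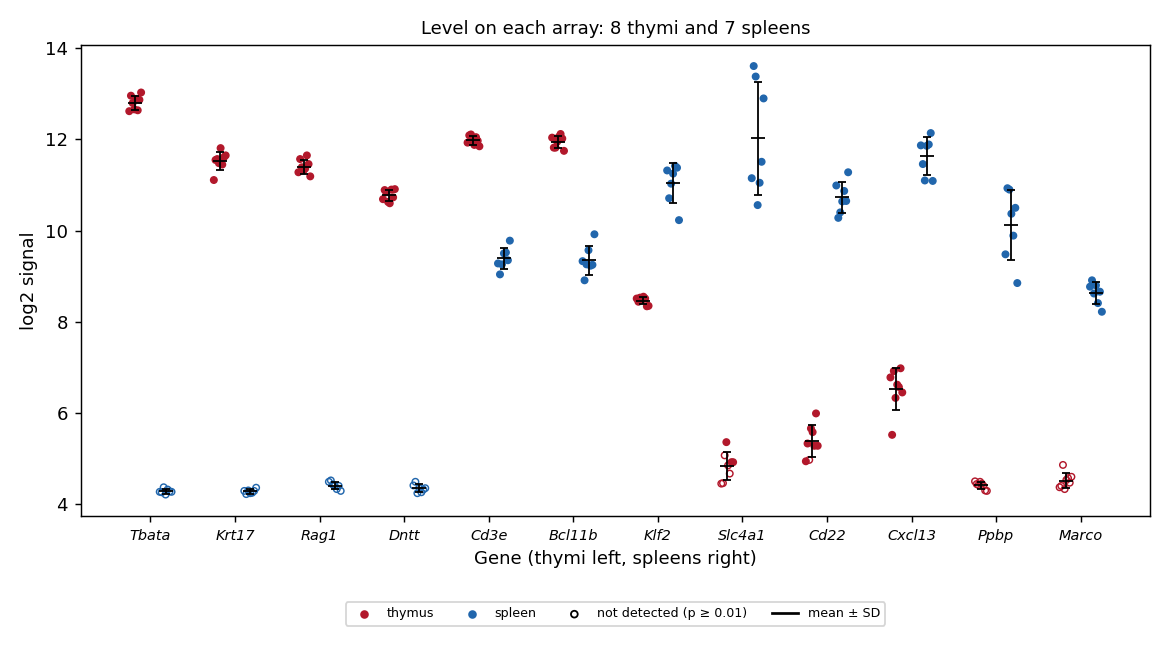
Log2 signal of 12 genes on each array, thymi on the left and spleens on the right of each gene, with 1 point per array, open where not detected, and bars for the mean ± SD. Tbata, Krt17, Rag1 and Dntt are near the bottom of the scale in all 7 spleens, Cd3e and Bcl11b are measured in both organs, and Klf2, Slc4a1, Cd22, Cxcl13, Ppbp and Marco are lower in all 8 thymi.

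Genes of thymic epithelium were among the largest increases. Of 19 tested members of its list, 17 were higher, all by at least 2-fold, and 0 lower, and 11 were detected on all thymi and no spleen. Tbata, a regulator of thymic epithelial cell growth, had the largest difference of all 9600 genes. It read 12.62, 12.84 and 13.03 in the thymi and 4.21, 4.27 and 4.37 in the spleens, at least 247-fold higher in the thymus (adjusted p = 6.42e-22). The keratins of the epithelial scaffold were high in every thymus. Krt17 read 11.11, 11.56 and 11.81 in the thymi and 4.22, 4.29 and 4.36 in the spleens, at least 102-fold higher, and Krt14, of the basal and medullary cells, read 10.09, 10.62 and 10.73 in the thymi and 4.38, 4.51 and 4.86 in the spleens, at least 50.7-fold higher. Their partners of simple epithelia, Krt8 and Krt18, read 10.98, 11.20 and 11.40 and 9.77, 10.18 and 10.26 in the thymi and 4.54, 4.91 and 5.27 and 4.31, 4.37 and 4.80 in the spleens. The keratin levels of the organs did not overlap.

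Genes by which the epithelium recruits and selects thymocytes were higher too. Ccl25, the chemokine that draws precursors into the thymus, read 12.10, 12.43 and 12.60 in the thymi and 5.94, 6.20 and 6.57 in the spleens (6.22 ± 0.096, adjusted p = 9.42e-19). Prss16, a protease of cortical epithelium linked to the peptides that select CD4 T cells, read 9.22, 9.69 and 9.97 in the thymi and 4.21, 4.36 and 4.55 in the spleens, at least 27.4-fold higher. Trp63, the factor that sustains epithelial progenitors, read 8.88, 9.12 and 9.38 in the thymi and 4.30, 4.47 and 4.92 in the spleens (4.55 ± 0.12). Aire, which lets medullary cells express tissue-restricted genes, was dimmer at 7.10, 7.38 and 7.49 in the thymi and 4.59, 4.80 and 5.47 in the spleens (2.47 ± 0.12). The thymi lay above the spleens for each of these 4. The probe of Foxn1, the master factor of this epithelium, fell below the detection filter, so that the label rests on the other members. Without thymus A and spleen G, 17 members were called higher.

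**Figure D3:**
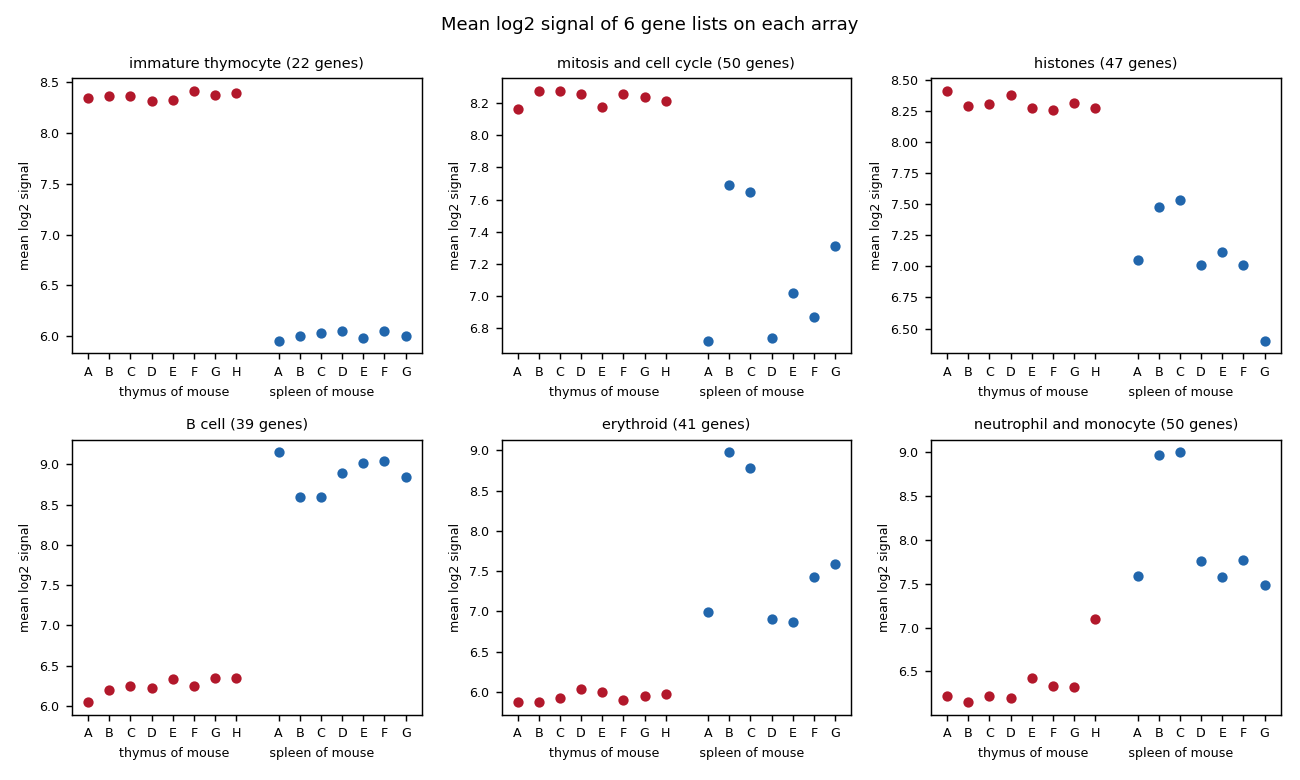
Mean log2 signal of gene lists on each array, thymi on the left and spleens on the right, with 1 point per array. The spleens spread widely for the cell cycle and histone lists, with summed mitosis signals of 38860 to 42390 in the thymi and 12780 to 25960 in the spleens.

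Cell division genes were broadly higher in the thymus. Of 43 tested members of the mitosis list, 38 were higher and 2 lower (median 1.44), and of 41 replication genes 38 were higher and 0 lower (median 0.85). Cdc20, the activator of the anaphase complex, read 10.34, 10.63 and 10.80 in the thymi and 7.63, 8.48 and 9.52 in the spleens (2.12 ± 0.25, adjusted p = 7.81e-07). The spindle motor Kif11 read 8.22, 8.31 and 8.57 in the thymi and 5.56, 5.96 and 7.25 in the spleens (2.05 ± 0.22) and the chromosome motor Kif22 read 10.19, 10.38 and 10.47 in the thymi and 7.38, 8.00 and 9.16 in the spleens (2.10 ± 0.27). In each case the thymi lay close together, and the spleens spread more widely with none reaching the thymi. Birc5, the survivin subunit of the chromosomal passenger complex, read 10.59, 10.87 and 10.94 in the thymi and 8.09, 8.52 and 10.25 in the spleens (1.96 ± 0.29). Tyms, which makes thymidylate for DNA synthesis, read 10.49, 10.60 and 10.67 in the thymi and 7.62, 7.83 and 9.30 in the spleens (2.39 ± 0.22), and Uhrf1, which keeps DNA methylation through replication, read 11.47, 11.65 and 11.73 in the thymi and 9.09, 9.79 and 10.65 in the spleens (1.78 ± 0.20). The helicase subunit Mcm7 differed by 2.15 ± 0.19. Spleens B and C, which had the highest red cell signals, also had the highest mitosis signals of the 7 spleens. The summed replication signal was instead highest in spleen G, at 25090, against 25020 in spleen B and 24470 in spleen C. Without spleens B, C and G the median difference of the mitosis list was 1.86 and that of the replication list 1.12.

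The D-type cyclins, which carry growth signals into the cell cycle, were split between the organs. Ccnd3, the cyclin of dividing thymocytes, read 12.53, 12.73 and 12.84 in the thymi and 10.04, 10.49 and 10.92 in the spleens (2.23 ± 0.13, adjusted p = 4.28e-11). Ccnd1 read 8.97, 9.13 and 9.27 in the thymi and 10.59, 10.83 and 11.08 in the spleens (-1.66 ± 0.088) and Ccnd2 read 8.09, 8.61 and 9.06 in the thymi and 7.90, 10.14 and 10.50 in the spleens (-1.35 ± 0.31). Ccnd3 was thus higher, and Ccnd1 lower, in every thymus than in any spleen, while the Ccnd2 levels overlapped through spleen G. Ccnd2 did not pass the threshold in the C57BL/6J mice alone.

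Promoters of 3 mitosis genes named above are shown as examples chosen because they hold both CCAAT and TTTGAA, while those of Birc5 and Ccnd3 hold neither in the 250 bases before the start. Each line gives the 120 bases before the start (RefSeq, GRCm38.p6), 5′ to 3′ along the gene, with Cdc20 at chr4:118437344-118437463 on the minus strand, Kif11 at chr19:37376262-37376381 on the plus strand and Kif22 at chr7:127042421-127042540 on the minus strand. Capitals mark CCAAT and TTTGAA, the core of the cell cycle homology region, on either strand (ATTGG and TTCAAA when inverted).
Cdc20: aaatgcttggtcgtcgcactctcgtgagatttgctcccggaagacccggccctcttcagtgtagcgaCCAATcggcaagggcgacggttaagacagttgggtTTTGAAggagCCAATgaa
Kif11: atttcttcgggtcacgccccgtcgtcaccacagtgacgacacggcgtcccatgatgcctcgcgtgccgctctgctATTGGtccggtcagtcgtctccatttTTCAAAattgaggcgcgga
Kif22: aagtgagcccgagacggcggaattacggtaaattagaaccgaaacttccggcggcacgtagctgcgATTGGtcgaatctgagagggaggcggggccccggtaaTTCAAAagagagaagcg
TTTGAA lay 18 bases before the start of Cdc20, 19 before Kif11 and 17 before Kif22, and CCAAT lay 53, 45 and 54 bases before, with a further match 8 bases before the start of Cdc20. Over the 250 bases before the start, CCAAT was present in 20 of 34 mitosis genes, 58.8%, against 34.5% of all genes. TTTGAA was present in 8 of them, 23.5%, against 16.3% of all genes. Neither share was particular to the mitosis list. Among the lists searched, TTTGAA ran from 3.33% for B cell genes to 36.1%, 13 of 36, for histone genes, with 28.6% for T lineage factors. CCAAT reached 83.3%, 30 of 36, for histone genes.

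Core histone genes, which supply new chromatin during DNA synthesis, had 37 of 41 tested members higher and 1 lower in the thymus (median 1.52). H2ac15 read 13.18, 13.36 and 13.46 in the thymi and 8.35, 9.94 and 11.53 in the spleens (3.19 ± 0.34, adjusted p = 1.82e-07), and H3c4 read 8.82, 8.91 and 9.10 in the thymi and 5.85, 6.60 and 7.23 in the spleens (2.40 ± 0.15). The linker histone H1f2 was the lower member, at 9.89, 10.02 and 10.28 in the thymi and 9.84, 10.70 and 11.00 in the spleens (-0.56 ± 0.14). In the C57BL/6J mice alone H1f2 differed by -0.28 and lost its call (adjusted p = 0.273 with limma). The summed histone signal was 97690 to 107300 in the thymi and 15510 to 57340 in the spleens, lowest in spleen G and highest in spleen C. Copies within a histone class are nearly identical in their coding part, so that a probe may read more than 1 of them. Most histone messages also lack the poly(A) tail from which this type of labelling starts, and how that weighs on the levels was not tested. Before the start, the histone genes held CCAAT in 30 of 36 promoters, 83.3%, TATAAA in 15, 41.7%, and the octamer ATGCAAAT in 7, 19.4%. The shares among all genes were 34.5%, 13% and 1.61% in the same order.

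Survival and death genes showed no common direction, with 5 of 24 higher and 12 lower (median -0.26). The death receptor Fas read 10.08, 10.23 and 10.33 in the thymi and 8.35, 8.58 and 8.89 in the spleens (1.60 ± 0.083), and Bcl2l1, whose BCL-XL protein protects double-positive thymocytes, differed by 1.27 ± 0.28 with overlapping organs. Bcl2, which protects mature lymphocytes, read 7.39, 7.79 and 7.99 in the thymi and 8.05, 8.89 and 9.26 in the spleens (-1.04 ± 0.16), its 5 other probes detected on at least 14 arrays gave differences between -0.97 and -0.37, and 2 probes detected on no array gave 0.07 and -0.11. The BH3-only genes Bbc3 and Pmaip1 differed by 0.80 ± 0.094 and -1.54 ± 0.15, but both other detected probes of Bbc3 gave only 0.17 and 0.16. Mcl1 read 11.14, 11.25 and 11.55 in the thymi and 11.89, 12.12 and 13.42 in the spleens (-1.02 ± 0.17), highest in spleen G.

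B cell genes were lower in the thymus almost throughout. Of 37 tested members, 33 were lower and 2 higher in the thymus, with a median difference of -3.26, and 5 were detected on all spleens and no thymus. Cd22, an inhibitory coreceptor, read 4.94, 5.30 and 5.99 in the thymi and 10.28, 10.65 and 11.28 in the spleens (-5.35 ± 0.17, adjusted p = 1.44e-14). Cd79a, the signalling chain of the B cell receptor, read 5.72, 6.07 and 6.43 in the thymi and 9.35, 11.38 and 12.00 in the spleens (-5.02 ± 0.28), with spleen G the lowest spleen. Tnfrsf13c, the receptor for the survival factor BAFF, read 5.30, 5.79 and 6.15 in the thymi and 10.17, 10.56 and 10.97 in the spleens (-4.80 ± 0.15), and the follicle homing receptor Cxcr5 read 5.43, 5.73 and 6.17 in the thymi and 10.30, 10.69 and 11.03 in the spleens (-4.93 ± 0.14). The thymi lay below every spleen for these genes, yet most thymi had a detected signal of each. Cr2, the complement receptor of marginal zone and follicular cells, read 4.19, 4.34 and 4.55 in the thymi and 7.73, 8.75 and 9.30 in the spleens, was detected in no thymus and was at least 11.8-fold lower there. The members that were higher were Vpreb1, part of the surrogate light chain of precursor B cells, at 6.15, 6.39 and 6.75 in the thymi and 4.51, 4.76 and 5.06 in the spleens (1.65 ± 0.10), and Bcl6, a repressor of germinal centre and immature cells, at 10.73, 10.81 and 10.97 in the thymi and 9.68, 10.29 and 10.62 in the spleens (0.62 ± 0.12). Without thymus A and spleen G, 33 members were lower.

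Vpreb3, a chaperone of B cell receptor assembly, read 4.29, 4.39 and 4.62 in the thymi and 7.28, 9.06 and 9.31 in the spleens and was at least 13.6-fold lower in the thymus, with no thymus above detection. Its promoter is shown for its octamer, the site after which OCT factors are named, capitalised here in its inverted form ATTTGCAT (RefSeq, GRCm38.p6, chr10:75948180-75948299 on the plus strand, 120 bases before the start).
Vpreb3: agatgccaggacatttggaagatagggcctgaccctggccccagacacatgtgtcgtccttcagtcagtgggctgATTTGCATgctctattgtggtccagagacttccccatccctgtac
The octamer stood 45 bases before the start. It was found in 2 of 30 tested B cell genes with a promoter, 6.67%, against 1.61% of all genes. The octamer was more frequent in the histone list, at 19.4%, 7 of 36. The E box CAGGTG was found in 13 of the 30 B cell promoters, 43.3%, against 17.1% of all genes. That share was not particular to the B cell list. Among the lists searched, it ran from 0% for mitosis and histone genes to 43.8%, 7 of 16, for T cell receptor signalling genes. The thymic epithelium list had 35.7%, 5 of 14. The EBF motif CCCNNGGG was found in 2 of the 30 B cell promoters, 6.67%, against 11.7% of all genes.

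Plasma cell and MHC class II genes were lower in the thymus. Of 13 tested members of the plasma cell list, 11 were lower and 1 higher (median -1.33). Immunoglobulin genes themselves were not analysed here. Mzb1, an endoplasmic reticulum protein of antibody-secreting and marginal zone cells, read 8.22, 8.49 and 8.98 in the thymi and 11.79, 12.07 and 12.38 in the spleens (-3.54 ± 0.13), and Irf4, the factor that drives plasma cell formation, read 6.55, 6.64 and 6.76 in the thymi and 9.10, 9.39 and 9.76 in the spleens (-2.75 ± 0.087). All 14 tested MHC class II genes were lower, each by at least 2-fold (median -1.55). H2-Eb1, a class II beta chain, was bright in both organs at 11.42, 11.76 and 11.85 in the thymi and 12.99, 13.25 and 13.32 in the spleens (-1.47 ± 0.087, adjusted p = 8.4e-11). H2-Ob, a modulator of peptide loading in B cells, read 6.71, 7.30 and 7.52 in the thymi and 10.54, 11.06 and 11.33 in the spleens (-3.69 ± 0.14), and Ciita, the master regulator of the class, read 7.61, 7.96 and 8.24 in the thymi and 9.96, 10.48 and 10.67 in the spleens (-2.38 ± 0.12). No thymus reached the lowest spleen for any of them. Class I genes were mixed, with 4 of 18 higher and 9 lower. H2-D1 differed by -1.39 ± 0.087, its activator Nlrc5 by -1.05 ± 0.098 and the peptide transporter Tap2 by 0.98 ± 0.10. Class I genes are near copies of one another, so that single probes may read several of them.

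Dendritic cell genes had 13 of 19 tested members lower and 2 higher (median -1.25). Irf8, a factor of dendritic, B and myeloid cells, read 7.77, 8.17 and 8.40 in the thymi and 10.07, 10.57 and 10.92 in the spleens (-2.32 ± 0.12), and Siglech, a receptor of plasmacytoid cells, read 6.35, 6.82 and 7.05 in the thymi and 8.25, 8.69 and 9.38 in the spleens (-1.91 ± 0.15). Ccl17, a chemokine of the thymic medulla and of activated dendritic cells, was higher at 6.19, 6.59 and 7.11 in the thymi and 4.19, 4.29 and 4.36 in the spleens, at least 3.3-fold, with no spleen above detection. Itgae, the integrin chain CD103, was higher too (0.89 ± 0.11).

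Macrophage genes of the red pulp and marginal zone were lower in 27 of 32 tested cases and higher in 1 (median -1.57). Marco, a scavenger receptor of marginal zone macrophages, read 4.33, 4.50 and 4.86 in the thymi and 8.22, 8.66 and 8.91 in the spleens and was at least 12.4-fold lower in the thymus, where it was not detected. Siglec1, of the macrophages beside the follicles, read 4.26, 4.48 and 4.72 in the thymi and 7.24, 7.52 and 7.73 in the spleens and was likewise undetected in the thymi. Spic, the factor that specifies red pulp macrophages, read 7.53, 7.83 and 7.86 in the thymi and 10.15, 10.25 and 10.78 in the spleens (-2.58 ± 0.10, adjusted p = 2.75e-13). Hmox1, which breaks down heme, read 4.97, 5.30 and 5.90 in the thymi and 8.68, 9.36 and 10.63 in the spleens (-4.11 ± 0.25), and the iron exporter Slc40a1 read 9.95, 10.19 and 10.47 in the thymi and 12.56, 12.75 and 13.72 in the spleens (-2.69 ± 0.14), highest in spleen G. For each of these 5 genes all thymi lay below all spleens. Lpl, a lipase of fat and of macrophages, was the member that was higher (1.11 ± 0.21), with overlapping organs.

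Neutrophil and monocyte genes were lower in 36 of 46 tested cases (median -1.79), with 1 higher. Csf3r, the receptor for G-CSF, read 4.56, 4.98 and 5.32 in the thymi and 8.37, 8.84 and 10.18 in the spleens (-4.14 ± 0.25, adjusted p = 8.79e-11), and the chemokine receptor Cxcr2 read 4.23, 4.27 and 4.56 in the thymi and 6.48, 7.70 and 8.76 in the spleens, undetected in the thymi. S100a9, a subunit of calprotectin, read 6.70, 7.55 and 10.36 in the thymi and 10.00, 11.07 and 12.76 in the spleens (-3.56 ± 0.51). Thymus H, at the high end for S100a9, was above the lowest spleen and had the highest summed signal of the list among the thymi. The sums were 16970 to 27280 in the thymi and 48410 to 88140 in the spleens, highest in spleen B. Without spleens B, C and G, 31 members were lower and the median was -1.24. It was -2.39 in the C57BL/6 mice alone, which include B and C, and -0.98 in the C57BL/6J mice alone.

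Natural killer and cytotoxic genes were lower in 25 of 30 tested cases and higher in 0 (median -1.07). The receptor Klra4 read 4.39, 4.50 and 4.89 in the thymi and 7.73, 8.26 and 9.05 in the spleens, at least 10-fold lower in the thymus, where it was not detected. Eomes, a factor of natural killer and memory T cells, was not detected in the thymi either, at 4.16, 4.24 and 4.48 in the thymi and 5.92, 6.12 and 6.47 in the spleens, and its relative Tbx21 differed by -1.75 ± 0.14. Receptors of innate sensing were lower in 33 of 37 tested cases (median -1.79). Tlr1, a sensor of bacterial lipoproteins, read 4.81, 5.14 and 5.63 in the thymi and 8.41, 8.81 and 9.46 in the spleens (-3.70 ± 0.15). Unc93b1, which escorts nucleic acid sensors to endosomes, read 7.92, 8.12 and 8.52 in the thymi and 10.51, 11.08 and 11.36 in the spleens (-2.87 ± 0.12). Interferon response genes had 5 of 33 higher and 14 lower (median -0.23), from Usp18, a brake on the interferon receptor, at 1.08 ± 0.12 to Rsad2, an antiviral enzyme, at -3.33 ± 0.24.

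Red cell precursor genes were lower in the thymus in 26 of 33 tested cases and higher in 1 (median -2.35), and 7 were detected on all spleens and no thymus. Slc4a1, the anion exchanger band 3 of the red cell membrane, had the largest decrease of all genes and read 4.45, 4.88 and 5.36 in the thymi and 10.56, 11.51 and 13.61 in the spleens (-7.18 ± 0.40, adjusted p = 3.22e-11). Alas2, the first enzyme of heme synthesis in red cell precursors, read 5.91, 6.31 and 7.59 in the thymi and 10.92, 12.09 and 13.09 in the spleens (-5.55 ± 0.30). Klf1, a master factor of these cells chosen after its values were seen, read 4.29, 4.38 and 4.61 in the thymi and 4.66, 7.24 and 9.87 in the spleens, undetected in the thymi. The blood group protein Kel read 4.23, 4.33 and 4.41 in the thymi and 5.10, 6.89 and 9.81 in the spleens, and the erythropoietin receptor Epor read 4.44, 4.64 and 4.99 in the thymi and 4.85, 5.79 and 7.53 in the spleens, with the lowest spleen inside the thymus range. All 3 were detected in no thymus, and they varied far more among the spleens than among the thymi. The globin gene Hbb-bt differed by -4.12 ± 0.26 and Hbb-b2 was at least 7.17-fold lower, but they are near copies of each other and their probes may read both. Sptb, the beta spectrin of red cells and muscle, was the member that was higher (1.45 ± 0.12). The summed signal was 13540 to 27230 in the thymi and 40210 to 86430 in the spleens, highest in spleen B. Without spleens B, C and G, 25 members were lower and 5 higher, with a median of -1.47. Heme synthesis and iron import genes had 11 of 16 lower and 0 higher, and 10 lower and 3 higher without those 3 spleens.

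Promoters of Alas2, from the heme synthesis list, and of Epor and Kel, from the red cell list, are shown as examples chosen because they hold the GATA motif of factors known to drive red cell genes. Each line gives the 120 bases before the start (RefSeq, GRCm38.p6), 5′ to 3′ along the gene, with Alas2 at chrX:150547297-150547416 on the plus strand, Epor at chr9:21963577-21963696 on the minus strand and Kel at chr6:41704326-41704445 on the minus strand. Capitals mark AGATAA, or TTATCT where inverted.
Alas2: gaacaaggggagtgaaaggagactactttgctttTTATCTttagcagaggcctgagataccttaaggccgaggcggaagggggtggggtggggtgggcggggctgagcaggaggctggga
Epor: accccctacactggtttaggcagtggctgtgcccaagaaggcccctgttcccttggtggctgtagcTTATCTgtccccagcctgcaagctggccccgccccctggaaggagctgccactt
Kel: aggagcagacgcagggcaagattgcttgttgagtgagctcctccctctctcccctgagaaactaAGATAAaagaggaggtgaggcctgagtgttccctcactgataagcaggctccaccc
The match lay 86 bases before the start of Alas2, 54 before Epor and 56 before Kel. AGATAA was present in the 250 bases before the start of 5 of 23 tested genes of the red cell list, 21.7%, and of 1 of 13 of the heme synthesis list, 7.69%, against 10.3% of all genes. The share in the red cell list was not particular to it. Among the 10 lists searched, it ran from 0% for T lineage factors to 23.1% for thymocyte genes, 3 of 13.

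Megakaryocyte and platelet genes were lower in 23 of 24 tested cases (median -1.59), and 7 were detected on all spleens and no thymus. The platelet chemokine Ppbp read 4.29, 4.43 and 4.50 in the thymi and 8.85, 10.37 and 10.93 in the spleens, at least 35-fold lower in the thymus (adjusted p = 9.15e-13). Itga2b, the alpha chain of the fibrinogen receptor, read 4.25, 4.51 and 4.71 in the thymi and 6.43, 7.56 and 8.24 in the spleens, at least 5.57-fold lower, and Treml1, a receptor of platelet granules, read 4.26, 4.45 and 4.64 in the thymi and 7.70, 7.98 and 9.26 in the spleens. None of the 3 was detected in a thymus. F13a1, a coagulation factor chain also made by macrophages, was the member that was higher (1.39 ± 0.26). Of the mast cell, eosinophil and basophil genes, 3 of 12 were higher and 5 lower. Cpa3, the mast cell carboxypeptidase, read 7.03, 7.24 and 7.56 in the thymi and 5.22, 5.60 and 6.31 in the spleens (1.69 ± 0.14), while the eosinophil receptor Ccr3 read 4.23, 4.40 and 4.54 in the thymi and 6.13, 6.56 and 7.56 in the spleens and was undetected in the thymi.

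The stroma of the organs differed in its patterning factors. Of 25 tested members of the spleen stroma list, 19 were lower and 1 higher in the thymus (median -2.12). Nkx2-3, a homeobox factor needed for spleen formation, read 4.50, 4.75 and 4.98 in the thymi and 9.33, 9.44 and 9.60 in the spleens (-4.73 ± 0.083, adjusted p = 6.3e-18). A dimmer probe of Nkx2-3, detected on 6 arrays, gave -0.98. Tcf21, a factor of the splenic mesenchyme, read 4.16, 4.27 and 4.48 in the thymi and 8.66, 9.47 and 9.69 in the spleens, at least 19.8-fold lower in the thymus. Cxcl13, the chemokine by which follicular stroma draws B cells, read 5.52, 6.60 and 6.98 in the thymi and 11.09, 11.86 and 12.14 in the spleens (-5.11 ± 0.21). Stab2, a scavenger receptor of sinus endothelium, read 5.74, 6.28 and 6.48 in the thymi and 9.31, 9.58 and 10.17 in the spleens (-3.39 ± 0.13). No thymus came near the spleens for any of these. Il7, the cytokine that thymic epithelium supplies to precursors, was the member that was higher, at 8.63, 8.88 and 9.32 in the thymi and 6.96, 7.79 and 8.14 in the spleens (1.22 ± 0.17). Blood endothelium genes were lower in 18 of 20 cases and higher in 2, with Plvap, of fenestrated vessels, at 6.92, 7.31 and 7.82 in the thymi and 10.16, 10.43 and 10.52 in the spleens (-3.02 ± 0.11). Matrix genes were split, 9 of 26 higher and 17 lower. The proteoglycan Lum read 7.30, 7.54 and 7.73 in the thymi and 4.50, 4.93 and 5.39 in the spleens (2.55 ± 0.12), and the proteoglycan Bgn read 8.91, 9.18 and 9.52 in the thymi and 11.53, 11.74 and 12.33 in the spleens (-2.61 ± 0.12).

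Among chemokines and their receptors, 9 of 41 tested members were higher and 26 lower (median -1.004). Beside those above, Cx3cl1, the membrane-bound ligand fractalkine, was higher at 7.18, 7.39 and 7.66 in the thymi and 5.11, 5.19 and 5.45 in the spleens (2.15 ± 0.088), and Ackr2, a decoy receptor, was lower at 4.66, 4.97 and 5.36 in the thymi and 7.73, 8.01 and 8.64 in the spleens (-3.04 ± 0.13). Cytokine receptor chains had 6 of 33 higher and 21 lower (median -0.65). Il17rb, a receptor chain for IL-25, read 8.11, 8.24 and 8.43 in the thymi and 4.52, 4.76 and 4.86 in the spleens and was at least 10.5-fold higher in the thymus (adjusted p = 8.19e-17), with no spleen above detection. Il10ra, the ligand-binding chain for IL-10, read 7.15, 7.30 and 7.49 in the thymi and 9.08, 9.48 and 10.02 in the spleens (-2.22 ± 0.11). The complement list had 13 of 14 members lower and 1 higher, with Cd55, which shields cells from complement, at 4.97, 5.40 and 5.92 in the thymi and 8.93, 9.59 and 9.83 in the spleens (-4.04 ± 0.15).

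The rule for named genes also gave members of no list among the largest differences. Cbr2, a carbonyl reductase, read 10.63, 11.04 and 11.17 in the thymi and 4.83, 5.30 and 5.65 in the spleens, and Cox8b, a cytochrome oxidase subunit of heart, muscle and brown fat, read 7.41, 9.80 and 11.25 in the thymi and 4.20, 4.38 and 4.75 in the spleens, at least 24.2-fold higher in the thymus. Cox8b spread over several log2 units among the thymi and Cbr2 over less than 1. Coch, an extracellular protein also made by follicular stroma, read 4.26, 4.44 and 4.77 in the thymi and 9.68, 10.16 and 11.02 in the spleens, at least 39.9-fold lower. A dimmer probe of Coch, detected on 7 arrays, gave -1.56. Gdpd2, a phosphodiesterase, read 4.48, 4.59 and 4.83 in the thymi and 9.21, 9.48 and 9.95 in the spleens, at least 23-fold lower, and the sulfotransferase Chst3 read 4.97, 5.48 and 6.07 in the thymi and 9.70, 10.82 and 11.05 in the spleens (-5.01 ± 0.21). Of the nucleosome-binding HMGN proteins, Hmgn2 read 13.03, 13.10 and 13.18 in the thymi and 11.82, 12.18 and 12.41 in the spleens, a difference of 0.94 ± 0.082. Spleen H was left out on its Hmgn2 signal, so this spread among spleens is a description and no test is given, and with that array the difference was 1.685. Hmgn1 read 11.99, 12.27 and 12.38 in the thymi and 11.66, 12.23 and 12.33 in the spleens, and its difference of 0.08 ± 0.098 did not pass the threshold (adjusted p = 0.482).

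Genes of other tissues varied between single arrays. Digestive enzymes of the pancreas, which touches the spleen, had 17 of 24 tested members lower and 1 higher. The count lower was 13 in the C57BL/6 mice alone and 1 in the C57BL/6J mice alone. Their summed signal was 897.6 to 1430 in the thymi and 668.5 to 72210 in the spleens, lowest in spleen G and highest in spleen D. The elastase Cela2a read 4.39, 4.47 and 4.65 in the thymi and 4.27, 9.83 and 13.35 in the spleens, with the lowest spleen below all thymi, and the lipase cofactor Clps read 4.31, 4.45 and 4.59 in the thymi and 4.28, 8.92 and 12.62 in the spleens. Neither Cela2a nor Clps passed the threshold in the C57BL/6J mice alone. Fat cell genes had 13 of 15 tested members higher and 0 lower. The brown fat uncoupler Ucp1 read 4.80, 8.58 and 9.98 in the thymi and 4.16, 4.20 and 4.29 in the spleens, and the hormone Adipoq read 8.06, 9.42 and 10.81 in the thymi and 5.71, 6.88 and 7.77 in the spleens (2.47 ± 0.38). Their sum was 3673 to 25600 in the thymi, highest in thymus A, and 3302 to 5044 in the spleens. Liver genes summed to 20260 in thymus A, to 918 to 1536 in the other 7 thymi and to 299.7 to 411.7 in the spleens. The liver protein Apoa2 read 5.72, 6.84 and 12.43 in the thymi and 4.25, 4.36 and 4.84 in the spleens, with thymus A the highest. Parathyroid hormone, Pth, read 4.19, 5.54 and 7.99 in the thymi and 4.18, 4.26 and 4.40 in the spleens, and its call was lost in the C57BL/6J mice alone. The part of such signals in the counts of the other lists was not tested.

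**Figure D4:**
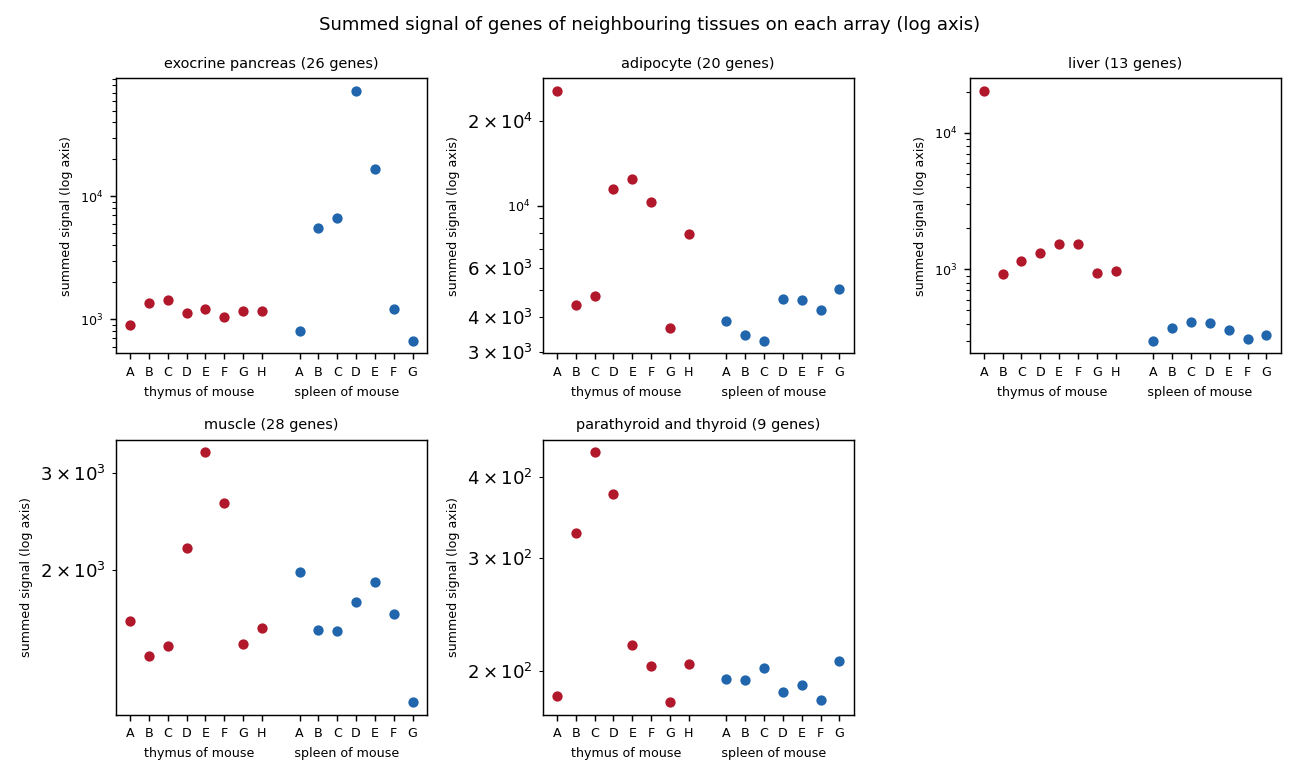
Summed signal of gene lists of neighbouring tissues on each array, on a log scale, thymi on the left and spleens on the right, with 1 point per array. Pancreas sums reach 72210 in spleen D, fat cell sums 25600 and liver sums 20260 in thymus A.

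The difference between the organs was also set against the strain label, which cannot be told apart from the set of mice that carried it. The interaction of organ and label passed an adjusted p under 0.05 at 2 genes, 0.0208% of those tested, and an unadjusted p under 0.05 at 1011. Lgi2, a secreted protein known from neurons, read 6.58, 6.25, 6.23 and 6.56 in the C57BL/6J thymi and 4.70, 4.42 and 4.60 in their spleens, against 4.84, 4.50, 4.74 and 4.56 in the C57BL/6 thymi and 4.70, 4.42, 4.57 and 4.59 in their spleens. Only the 4 C57BL/6J thymi stood above the rest. The other arrays read 4.42 to 4.84, a range in which other genes here went undetected. Lgi2 may thus have passed the detection filter only through those 4 thymi, and its p-value below carries that limit. Pttg1, the securin that holds sister chromatids together until anaphase, read 6.75, 6.86, 6.70 and 7.05 in the C57BL/6J thymi and 5.42, 5.71 and 5.37 in their spleens, against 5.51, 5.53, 5.49 and 5.06 in the C57BL/6 thymi and 6.36, 5.80, 6.06 and 6.28 in their spleens. Its thymi were thus above the spleens in the C57BL/6J mice and below them in the C57BL/6 mice. The difference between the organs was larger by 1.75 ± 0.18 for Lgi2 (adjusted p = 0.000487) and by 2.07 ± 0.22 for Pttg1 (adjusted p = 0.000487) under the C57BL/6J label.

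**Figure D5:**
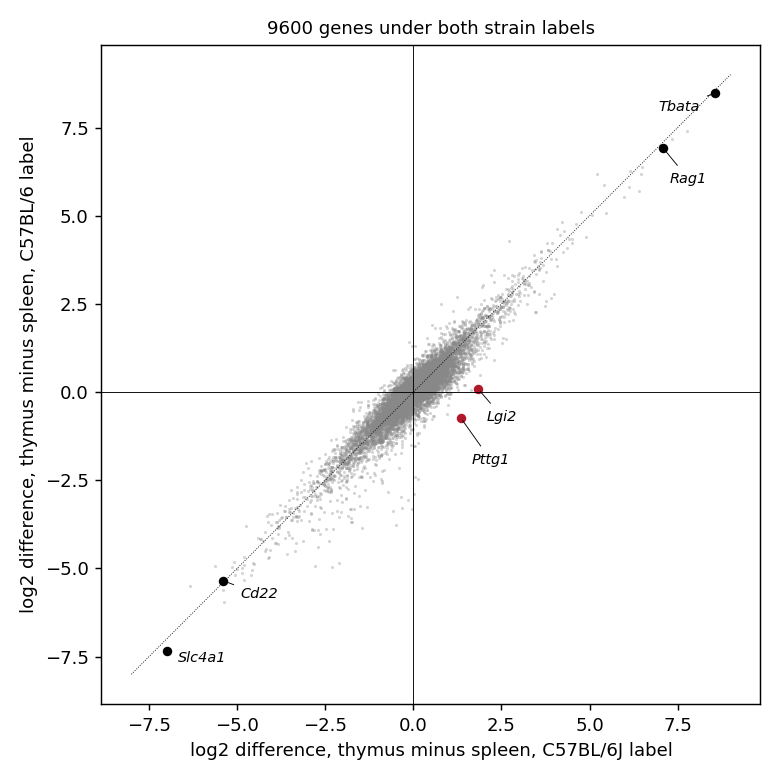
Difference in log2 signal, thymus minus spleen, of each gene, in the C57BL/6J mice on the horizontal axis and the C57BL/6 mice on the vertical axis, with 1 point per gene. Lgi2 and Pttg1 are the 2 genes whose difference itself differed between the labels.

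The same comparison was made in mice that lack HMGN proteins, whose arrays played no part in the values above. In Hmgn2 knockouts with the C57BL/6 label, 4 thymi and 4 spleens, 5462 of the 9600 genes (56.9%) differed between the organs. In double knockouts of Hmgn1 and Hmgn2 with the C57BL/6J label, 4 thymi and 3 spleens, 6677 genes (69.6%) differed, with the spleen array of replicate 1 left out because its Hmgn2 level went against its label. Of the 2121 genes called with at least a 2-fold difference in the wild types, 2113 had the same sign and 2022 (95.3%) were called in the Hmgn2 knockouts, and 2120 had the same sign and 2110 (99.5%) were called in the double knockouts. None was called in the opposite direction in either set. Tbata differed by 8.04 and 8.58 in these mice, Rag1 by 7.12 and 7.10, Cdc20 by 1.69 and 1.81, Cd22 by -4.86 and -5.35 and Slc4a1 by -7.28 and -7.12, Hmgn2 knockouts first.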

How the data were processed

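Bead arrays measured biotin-labelled cRNA made with Ambion MessageAmp reagents from Trizol-extracted, RNeasy-cleaned total RNA, per the labels' protocols. The submitters' processing notes name GenomeStudio 2011.1. The deposited table gives a raw signal intensity and a detection p-value per probe, per the file headers. A second deposited table of normalized intensity was used as an alternative. The slide and the authors' genome build were not used here. Arrays have no depth in counts, and their number limits the precision.

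The 15 arrays were normalized together with neqc (limma 3.58.1, R 4.3.3), with an offset of 16, to log2 values computed from the deposited intensities. Probes entered the test with a detection p-value under 0.01 on 4 or more arrays, and the brightest probe stood for a gene. Of 25697 probes, 23978 had 1 gene, 0 several and 1719 none. Genes were named from the platform annotation, with symbols of RefSeq GRCm38.p6. Limma's moderated test had the organ as its term and the mouse as a random block (estimated correlation -0.003), with Benjamini-Hochberg adjustment, and was tested on simulated data. The mouse identifiers of the labels give the pairing, since both organs came from the same animal. Paired deviations from the organ means correlated at r = -0.039 to 0.144 over mice A to G.

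Members and gene lists were chosen with earlier results of these data known. Of 1190 list words, 1047 matched a probe. The rule for named genes took Hmgn1 and Hmgn2, the 15 largest increases and decreases, up to 8 called members of each list by size and up to 3 in its minority direction, the 5 smallest interaction p-values, and the 3 brightest members of each list of another tissue. Lists were described by counts without a set test. Alternatives changed background correction, scaling, arrays normalized together, source table, filter, probe choice, block, weights, variance prior, strain label and arrays left out.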

Additional observations from a re-analysis of the deposited data

Results flagged for a closer look

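Single arrays far from the others of their organ by Dixon's ratio were found in 36 of 380 groups tested over the named genes and gene lists, and chance flags about 1 in 20 groups. Spleen G was low for Cd79a at 9.35, Vpreb3 at 7.28, Cd3d at 9.15, Cd3g at 9.24, Ccnd2 at 7.90 and Hmgn1 at 11.66 (log2 signals). It was high for Mcl1 at 13.42, Slc40a1 at 13.72, Notch1 at 9.22, Bgn at 12.33, Ackr2 at 8.64 and Krt18 at 4.80, the last below detection. By the mean log2 signal of a list, spleen G was low for the HMGN genes at 10.31, the chemokine genes at 6.70 and the striated muscle genes at 4.86.

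Thymus A was the low array for Aire at 7.10, Cd69 at 9.95, Gimap5 at 6.49, H2-Ob at 6.71, Stab2 at 5.74 and Hmgn1 at 11.99. It was the high array for Apoa2 at 12.43 and for Coch at 4.77, the last below detection. Its list means were high for liver genes at 9.49 and complement genes at 6.61, and low for MHC class II genes at 8.43 and mature T cell genes at 7.34.

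Thymus H was high for S100a9 at 10.36 and for the neutrophil and monocyte list at 7.09, and low for Uhrf1 at 11.47. Thymus B was low for Cxcl13 at 5.52 and Siglech at 6.35, and thymus E low for Birc5 at 10.59. Thymus C was high for Sptb at 6.73, and below detection thymus D was high for Epor at 4.99 and thymus F for Gdpd2 at 4.83.

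The difference between the organs itself differed between the strain labels for Lgi2, by 1.75, and for Pttg1, by 2.07, as the difference under C57BL/6J minus that under C57BL/6 in an interaction test of limma.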

How the results depend on the processing

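The count of genes called either way stayed within 1.5 times of 6541 under every alternative tried, and between 6309 and 7040 with each array left out in turn. The ranges with 1 array left out were 3268 to 3711 genes higher, 3035 to 3329 lower, 2099 to 2143 with at least a 2-fold difference, 2 to 3 for the interaction with the strain label, 4722 to 5608 in the Hmgn2 knockouts and 5963 to 6713 in the double knockouts. Without background correction, 962 genes differed by at least 2-fold (402 higher, 560 lower), against 2121, a setting that by construction compresses dim signals. Without the mouse block, 3404 genes were higher and 3138 lower, and with the mouse as a fixed replicate block, which drops mouse H, 3210 and 3013. The pairing changed no call of a named gene. Median scaling gave 2996 genes higher and 3353 lower, a share higher of 47.2% against 52.0%. Hmgn1, never called, differed by -0.013 in the C57BL/6 mice alone, by -0.052 without spleens B, C and G and by -0.003 (without spleen G) to 0.116 with 1 array left out. Pttg1 differed by -0.73 in the C57BL/6 mice alone, and the median of the Notch and Wnt list was 0.148 in the C57BL/6J mice alone and -0.131 to 0.082 (without spleen C) with 1 array left out. The causes were not tested. Of single genes, Ccnd2, Cela2a, Clps, Gimap9, H1f2, Notch1 and Pth lost their call in the C57BL/6J mice alone and Cd24a, Gimap9 and Lgi2 in the C57BL/6 mice alone. Cd24a, Gimap9 and Lgi2 also lost it without spleens B, C and G, and Cd24a without spleen B and without thymus A and spleen G. Gimap6, not called, passed the threshold in 7 settings and reversed to -0.022 in the C57BL/6J mice alone. In the C57BL/6J mice alone, the members lower numbered 1 for the pancreas list against 17, 1 for immediate early genes against 8 and 7 for heme synthesis against 11. In the C57BL/6 mice alone, 4 liver genes were higher against 9, and 9 interferon response genes lower against 14. Genes below detection in an organ have only a bound there.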
